A study of Mus musculus with 9 samples.

Results

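Gene expression in RAW264.7, a tumour line of mouse macrophages, was compared between cells given lipopolysaccharide (LPS) together with interferon gamma and cells left untreated. The 6 libraries of this comparison are 6 of the 9 in the series, 3 labelled M1 and 3 labelled Mock, and they were chosen by those labels. The M1 cells received 100 ng/ml of LPS and 50 ng/ml of mouse interferon gamma, and the Mock cells received neither. The culture medium of both groups held 10% fetal bovine serum. The other 3 libraries, from cells that also received potassium iodide at 20 mM, are not compared here. They counted in the measure of spread, in the filter on low values and in the alternative scalings. The length of treatment is not given in the sources used here, all cells are of 1 line, and no label states that the replicates are separate cultures. The p-values therefore reflect differences among libraries that may be only technical. The files hold 12474 gene rows, all above 0 in every library, so a gene silent in either group is not analysed here, and 11156 rows passed a filter on low values and were tested.

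LPS is bound by CD14 and by the receptor TLR4 with its partner MD-2, and signals through the adaptors MyD88 and TRIF to the transcription factors NF-kB, AP-1 and IRF3. Interferon gamma binds a receptor of the chains IFNGR1 and IFNGR2, which activates the kinases JAK1 and JAK2. Type I interferons use other receptors and a factor complex that includes IRF9 and binds the interferon-stimulated response element (ISRE) of antiviral genes. In macrophages LPS with interferon gamma is the classical stimulus of the state called M1, known for nitric oxide production, inflammatory cytokines and antigen presentation.

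Values are FPKM, fragments scaled by transcript length and library total, and a fold change is a difference of log2(FPKM + 1), which understates the change of low genes. Library totals recovered from the values were 17431070 to 25470730 fragments, and 1 fragment on a gene of 1 kb was worth 0.0393 to 0.0574 FPKM. Within groups, libraries correlated across genes at a Pearson r of 0.9973 to 0.9977, and none stood apart. RNA of a culture was measured in bulk, so fewer cells of a kind and less RNA per cell cannot be told apart. Macrophage markers were present in both groups, and of 21 tested macrophage identity genes 9 were higher and 11 lower, 5 at least 2-fold in each direction, with a summed level of 5257.1 to 5341.5 FPKM in the Mock libraries and 3700.7 to 3742.6 in M1. Among them were Cd68 (from 244 ± 6.5 to 323 ± 1.9), Mpeg1 (from 334 ± 0.97 to 465 ± 9.0) and Spi1 (from 97.4 ± 3.0 to 74.1 ± 3.3, throughout as the mean ± SD of n = 3 libraries), and Csf1r and Lyz2, which fell, are described below. Rows were found for 9 of 11 osteoclast markers, of which 7 were tested, 3 higher and 4 lower. They were found for 6 of 12 dendritic cell markers, of which 3 were tested, 2 higher and 1 lower. For fibroblast and stromal markers 1 of 10 had a row, and for epithelial and endothelial markers 3 of 10. The 10 neutrophil markers looked for have no row among those used here. Of 16 lymphocyte markers 2 have one, Lck (from 4.96 ± 0.34 to 3.58 ± 0.34) and the immunoglobulin gene Ighm (from 102 ± 1.1 to 24.3 ± 0.81).

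At a limma adjusted p under 0.05 (Benjamini-Hochberg), 9571 of the 11156 tested genes differed (85.8%), 3405 higher in M1 (30.5%) and 6166 lower (55.3%). The counts of list members given below are to be read beside these shares. The 3 M1 libraries lay wholly above or wholly below the 3 Mock libraries in 9636 genes (86.4%). Rises of at least 2-fold were called in 756 genes (6.78%) and falls of that size in 1794 (16.1%). The median log2 fold change over all tested genes was −0.23. With RLE scaling, which sets the median ratio between libraries to 1, the median moved to 0.01, and 4810 genes were higher (43.1%) and 4749 lower (42.6%), so that 50.3% of calls were rises in place of 35.6%. On the log2(FPKM + 1) scale the size of the changes was not even in both directions. Rises of at least 16-fold were seen in 28 genes and falls of that size in 5. These counts depend on the scale, which shrinks changes that start or end near 0. Htr1b, with a log2 fold change of −3.58, is not among the 5, though its mean FPKM fell 69.6-fold. By the level of the higher group, falls outnumbered rises in each class below 100 FPKM, with 139 higher and 276 lower under 1 FPKM, 1212 and 3128 from 1 to 10, and 1726 and 2598 from 10 to 100. From 100 to 1000 FPKM 302 were higher and 157 lower, and of the 38 genes whose mean reached 1000 FPKM in the higher group 26 rose and 7 fell. The 756 genes that rose at least 2-fold held 9.74% to 9.93% of the summed FPKM in the Mock libraries and 30.69% to 31.05% in the M1 libraries. The 1794 that fell at least 2-fold held 19.05% to 19.41% and 4.99% to 5.13%.

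**Figure D1:**
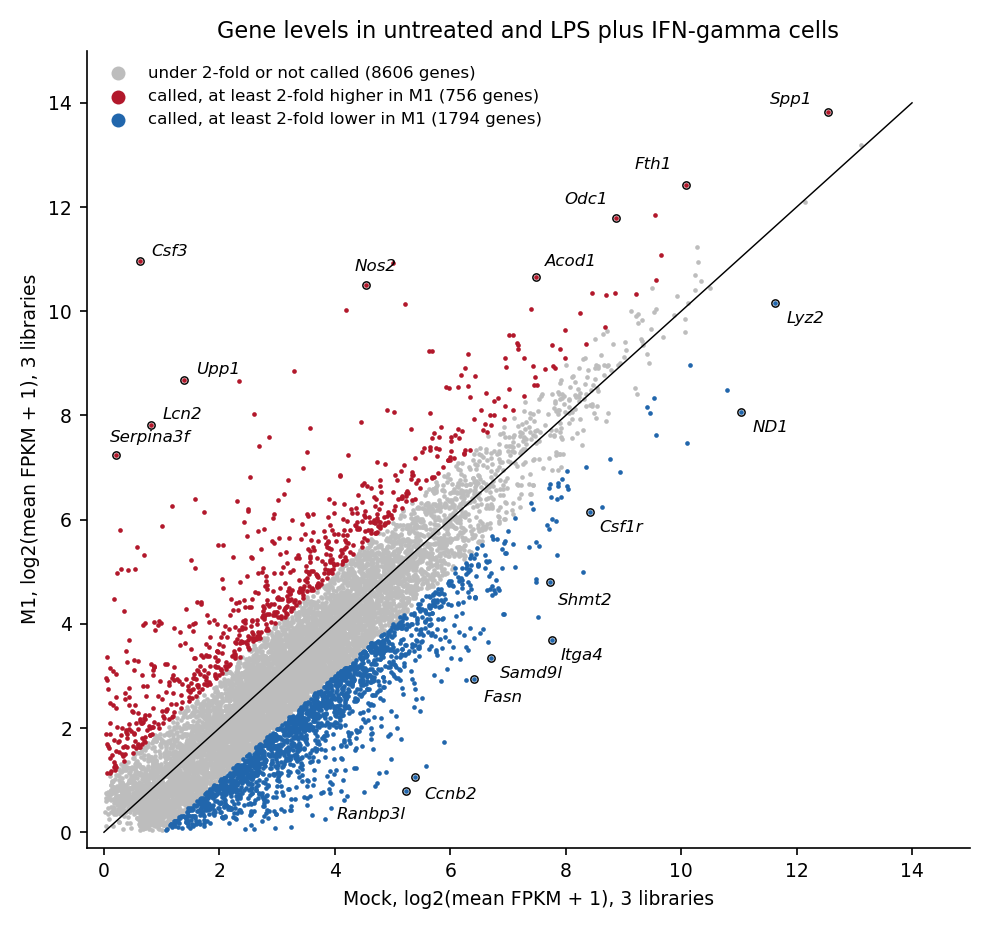
Mean level of each of the 11156 tested genes, as log2(mean FPKM + 1), in the 3 Mock libraries (horizontal axis) and the 3 M1 libraries (vertical axis), with the line of equal levels. Red points are the 756 genes called at least 2-fold higher in M1 and blue points the 1794 called at least 2-fold lower. The farthest rises lie at the left edge, from levels near 0, and the farthest falls lie nearer the diagonal.

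The promoters of 4 genes are shown because they stand for the groups described below: an NF-kB inhibitor that rose, 2 interferon-responsive genes that fell and a mitotic cyclin that fell. The stretches are the 250 bases before the annotated start, read 5′ to 3′ on the gene's strand (RefSeq, build GRCm38.p6). Capitals mark the letters GGGNNTTTC in Nfkbia (chr12:55492648-55492897, minus strand), TTTCNNTTT in Ifit1 (chr19:34640639-34640888, plus strand) and in Cxcl10 (chr5:92348890-92349139, minus strand), and CCAAT in Ccnb2 (chr9:70421555-70421804, minus strand), each on either strand.
Nfkbia: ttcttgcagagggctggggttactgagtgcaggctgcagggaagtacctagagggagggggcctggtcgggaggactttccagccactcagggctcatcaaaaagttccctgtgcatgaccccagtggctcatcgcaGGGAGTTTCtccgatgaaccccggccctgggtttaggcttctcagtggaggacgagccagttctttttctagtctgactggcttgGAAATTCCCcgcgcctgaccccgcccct
Ifit1: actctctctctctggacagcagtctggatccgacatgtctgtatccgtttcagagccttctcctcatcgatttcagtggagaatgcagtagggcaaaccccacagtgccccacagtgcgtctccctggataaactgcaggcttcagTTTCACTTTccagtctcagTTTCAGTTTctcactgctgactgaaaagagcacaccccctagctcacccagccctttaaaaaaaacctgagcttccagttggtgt
Cxcl10: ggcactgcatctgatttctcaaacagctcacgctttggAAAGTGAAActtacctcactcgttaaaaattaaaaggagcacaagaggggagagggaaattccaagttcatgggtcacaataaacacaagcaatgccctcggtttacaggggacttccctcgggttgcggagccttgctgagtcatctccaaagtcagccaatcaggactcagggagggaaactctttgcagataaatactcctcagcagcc
Ccnb2: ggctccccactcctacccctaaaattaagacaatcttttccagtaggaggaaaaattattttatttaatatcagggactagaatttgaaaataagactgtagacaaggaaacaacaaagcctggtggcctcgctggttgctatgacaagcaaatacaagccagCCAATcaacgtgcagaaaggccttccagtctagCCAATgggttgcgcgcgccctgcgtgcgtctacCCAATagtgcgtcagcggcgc
Nfkbia held the NF-kB-like letters 2 times in this stretch, Ifit1 the ISRE-like letters 2 times, Cxcl10 the ISRE-like letters 1 time and Ccnb2 CCAAT 3 times.

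The same letters were counted in the 8654 tested genes that have a RefSeq window of 300 bases (250 before and 50 after the start, both strands, the first listed window of a gene). The ISRE-like letters were found in 21 of 31 windows of a list of antiviral effector genes (67.7%), against 8.0% of all tested genes and 10.7% of all windows in the table. The antiviral windows had a median GC content of 50.3%, against 61.0% for all tested genes, and its part in the matches was not tested. CCAAT was found in 71.2% and TTTGAA, the core of the cell cycle homology region, in 69.2% of the windows of 52 mitotic genes, against 39.4% and 12.2% of all tested genes and 37.9% and 18.1% of the whole table. E2F-like letters (TTTCCCGC or TTTGGCGC) were found in 14 of 45 replication genes (31.1%), against 3.4% of tested genes and 1.6% of the table. The NF-kB-like letters were found in 6 of 12 windows of NF-kB subunits and inhibitors. Over all genes the differences were smaller. The NF-kB-like letters were in 7.0% of the windows of genes that rose at least 2-fold, 3.7% of those that fell at least 2-fold and 4.3% of all tested genes (4.5% of the table). For the ISRE-like letters the shares were 11.4% of genes that rose, 9.3% of those that fell and 8.0% of all tested genes. A match is a description of letters and shows no binding.

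Receptors of the first step moved in opposite directions. Among 14 Toll-like receptors and LPS coreceptors, 2 were higher and 10 lower in M1, with a median log2 fold change of −0.73 beside −0.23 for all genes, and 10 were lower with RLE scaling too. Cd14, the LPS coreceptor, had 744, 763 and 748 FPKM in the Mock libraries and 1519, 1571 and 1559.8 FPKM in the M1 libraries. Tlr4, the LPS receptor itself, had 31.3, 30.4 and 31.6 FPKM in the Mock libraries and 7.63, 6.52 and 7.54 FPKM in the M1 libraries (log2 fold change −1.97 ± 0.06 SE, limma adjusted p = 9.38e-11). In both genes the groups did not overlap, Cd14 being higher in every M1 library and Tlr4 lower. Tlr2, the receptor for bacterial lipoproteins, fell from 56.7 ± 1.2 to 10.7 ± 0.26 FPKM. The endosomal nucleic acid receptors Tlr7 (from 74.6 ± 3.5 to 12.8 ± 0.93) and Tlr3 (from 16 ± 0.38 to 3.09 ± 0.19) also fell, and Tlr9 (from 4.7 ± 0.12 to 4.99 ± 0.41) was not called. Ly96, which encodes MD-2, was not called either (from 7.39 ± 0.61 to 6.79 ± 0.99).

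Among 21 adaptors and kinases of the receptors no fall reached 2-fold, and the split of 6 higher and 11 lower turned to 11 and 8 with RLE scaling. The largest rise was in Irak3, a kinase-like brake of the pathway, from 3.7 ± 0.27 to 18.2 ± 1.0 FPKM. Irak2 rose from 21.7 ± 0.26 to 49.4 ± 0.48 and Ticam1, the gene of TRIF, from 12.5 ± 0.51 to 26.3 ± 0.80. Myd88 (from 37.4 ± 0.40 to 21.6 ± 0.75) and Irak1 (from 23.4 ± 0.58 to 12.9 ± 0.37) fell. On the interferon gamma side, Ifngr1, the ligand-binding receptor chain, had 17.8, 18.4 and 18.3 FPKM in the Mock libraries and 6.88, 7.05 and 6.9 FPKM in the M1 libraries, all M1 libraries below all Mock libraries. Jak3 (from 6.87 ± 0.36 to 17.7 ± 0.62), Jak2 (from 18.5 ± 0.33 to 32.6 ± 1.6) and Ifngr2 (from 26.5 ± 1.0 to 36.8 ± 1.1) rose. Of the 14 receptors, JAK and STAT genes, 10 were higher and 4 lower (12 and 2 with RLE scaling).

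Transcription factors of the response moved in both directions. Irf8, an interferon regulatory factor of the myeloid lineage, had 30.8, 31.8 and 31.6 FPKM in the Mock libraries and 258, 274 and 273 FPKM in the M1 libraries, and its groups lay far apart (3.06 ± 0.03 SE, limma adjusted p = 1.28e-14). Irf1, an interferon regulatory factor induced by interferon gamma, rose from 14.1 ± 0.31 to 36.5 ± 0.34 FPKM and Irf7 rose from 215 ± 2.4 to 341 ± 9.7. The other members that moved most fell: Irf2 (from 10.1 ± 0.090 to 4.67 ± 0.19), Irf3 (from 10.7 ± 0.52 to 6.28 ± 0.26) and Irf5 (from 69.9 ± 1.7 to 43.2 ± 0.93). Over the list of 11, which also holds genes of IRF2-binding proteins, 4 were higher and 7 lower, beside 30.5% and 55.3% of all tested genes. NF-kB genes were higher in 9 of 15 and lower in 4 (12 and 1 with RLE scaling), with no 2-fold fall and a median of 0.59. Nfkbia, the inhibitor IkB-alpha, had 73.8, 77.5 and 74.6 FPKM in the Mock libraries and 467, 480.1 and 484 FPKM in the M1 libraries, all M1 libraries above Mock. Nfkbiz rose from 14.9 ± 0.51 to 79.2 ± 0.57, Bcl3 from 5.76 ± 0.25 to 32.7 ± 1.4 and the deubiquitinase gene Tnfaip3 from 4.45 ± 0.24 to 14.1 ± 0.64. Of the subunit genes, Rel rose from 10.8 ± 0.39 to 20.3 ± 0.99.

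Immediate early genes did not move as a block, 13 of 22 being higher and 9 lower (14 and 5 with RLE scaling). Atf3 rose from 59.8 ± 0.92 to 374 ± 7.7, Cebpb from 69.4 ± 2.9 to 212 ± 15 and Maff from 3.26 ± 0.11 to 14.5 ± 0.41 FPKM. Myc, a driver of cell growth, rose from a low level, from 0.289 ± 0.057 to 5.4 ± 0.036, with 11 to 20 fragments in the Mock libraries and 259 to 321 in M1. The classical first-wave genes Egr1 (from 22.5 ± 0.31 to 6.86 ± 0.55), Ier2 (from 34.3 ± 0.99 to 12 ± 0.45), Fos (from 6.53 ± 0.28 to 2.37 ± 0.14) and Jun (from 35.8 ± 1.1 to 17.6 ± 1.8) fell. Of 7 tested SOCS genes, feedback inhibitors of cytokine signalling, 5 were higher and 2 lower. Socs3, which blocks JAK kinases, had 5.13, 4.72 and 5.4 FPKM in the Mock libraries and 251, 262 and 266 FPKM in the M1 libraries. Socs1 rose from 1.45 ± 0.11 to 6.47 ± 0.72 and Cish from 0.155 ± 0.047 to 5.0 ± 0.19. Among 17 dual specificity phosphatases, taken by name from a family that includes phosphatases of MAP kinases, 8 were higher and 7 lower. Dusp5 (from 5.36 ± 0.38 to 54.1 ± 1.8) and Dusp14 (from 0.923 ± 0.20 to 14.7 ± 0.87) rose most, and Dusp6, which acts on ERK, fell (from 43.1 ± 1.0 to 18.7 ± 0.85). Of 16 factors of mRNA decay 4 were higher and 12 lower (6 and 8 with RLE scaling). The RNase gene Zc3h12a (from 7.32 ± 0.20 to 39.4 ± 1.8) and Zfp36 (from 35.7 ± 0.57 to 131 ± 1.6), which destabilise cytokine mRNA, rose, while Zfp36l2 (from 34.1 ± 0.38 to 16.5 ± 0.56), Khsrp (from 50.2 ± 0.88 to 26.3 ± 0.78) and Hnrnpd (from 17.6 ± 0.87 to 6.31 ± 0.11) fell.

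**Figure D2:**
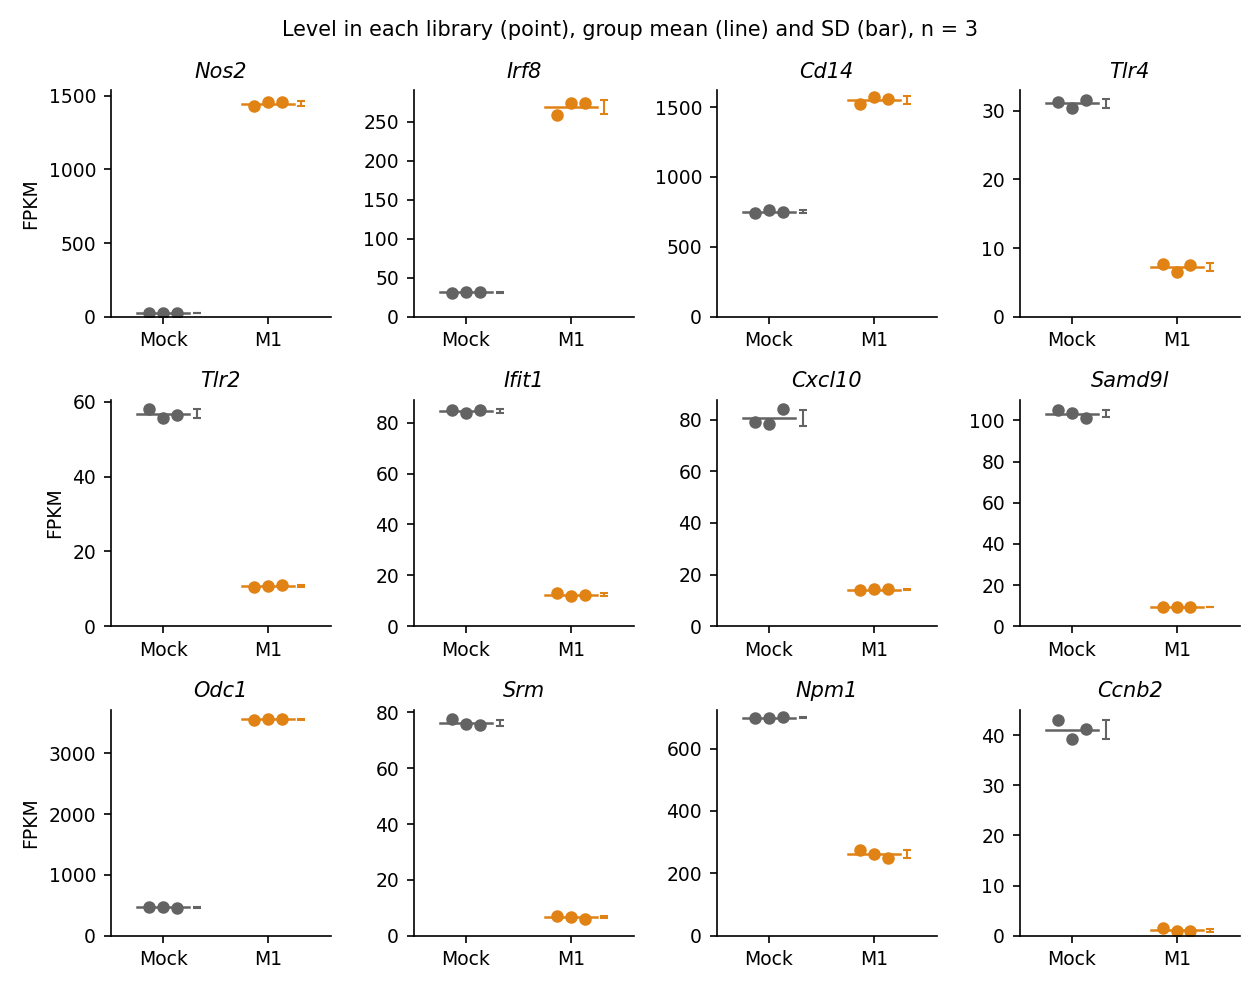
FPKM of 12 genes in each of the 3 Mock and 3 M1 libraries (points), with the group mean (line) and SD (bar at the side), on axes that start at 0. In each of the 12 genes no M1 library falls in the range of the Mock libraries. Nos2, Irf8, Cd14 and Odc1 are higher in M1 and the other 8 are lower.

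Secreted mediators were among the largest rises. Of 14 chemokine genes 11 were higher, all at least 2-fold, and 3 lower, with a median of 2.51. Ccl2, which attracts monocytes, had 4.21, 4.08 and 3.83 FPKM in the Mock libraries and 404, 417 and 392 FPKM in the M1 libraries. Ccl5 rose from 36.1 ± 4.2 to 1119.6 ± 27, the neutrophil attractant Cxcl2 from 50.5 ± 3.1 to 598 ± 9.9 and Ccl3 from 743 ± 35 to 3688 ± 94. Cxcl9 and Cxcl11, ligands of the receptor CXCR3, rose (from 0.0776 ± 0.033 to 7.92 ± 0.68 and from 2.19 ± 0.31 to 19.7 ± 0.71), the former from 3 to 6 fragments per Mock library. The third CXCR3 ligand went the other way: Cxcl10 had 79.2, 78.3 and 84.1 FPKM in the Mock libraries and 13.9, 14.4 and 14.2 FPKM in the M1 libraries (−2.42 ± 0.03 SE, limma adjusted p = 9.61e-14). The 3 Mock libraries all lay above the 3 M1 libraries.

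Among 13 tested interleukin and interferon genes 10 were higher and 3 lower. Lif, a cytokine of the interleukin 6 family, rose from 0.615 ± 0.079 to 39.1 ± 0.67 FPKM. The interleukin 27 subunits Il27 (from 10.4 ± 0.48 to 157 ± 3.3) and Ebi3 (from 14 ± 1.7 to 83.6 ± 1.6) rose together. Il1rn, which encodes the antagonist of the interleukin 1 receptor, had 17.1, 17.7 and 17 FPKM in the Mock libraries and 1067, 1043 and 1008 FPKM in the M1 libraries. Its level per length in M1 stood above that of Il1b (from 0.215 ± 0.041 to 54.6 ± 1.2) and Il1a (from 0.125 ± 0.040 to 21.3 ± 2.2), which rose as well. Ifnb1, the interferon beta gene, fell from 5.82 ± 0.65 to 0.246 ± 0.31 FPKM, with 77 to 121 fragments in the Mock libraries and 1 to 9 in M1. Il18 (from 43.6 ± 2.1 to 13.8 ± 1.2) and Il16 (from 4.38 ± 0.19 to 1.48 ± 0.051) fell. Of 17 tested growth factors 11 were higher and 5 lower. Factors of vessels and tissue rose, Vegfa (from 19.8 ± 0.88 to 55.4 ± 1.6), Vegfc (from 0.323 ± 0.055 to 8.62 ± 0.088), Pdgfb (from 31.3 ± 0.34 to 91.3 ± 1.8), Hbegf (from 0.643 ± 0.040 to 15.3 ± 0.26) and the endothelin gene Edn1 (from 0.167 ± 0.087 to 30.3 ± 0.55). Csf3, granulocyte colony-stimulating factor, had 0.667, 0.284 and 0.666 FPKM in the Mock libraries and 1972, 2019 and 1963 FPKM in the M1 libraries, the largest rise of all tested genes. Spp1, osteopontin, was the most abundant gene product listed in M1 (from 5948 ± 162 to 14490.0 ± 786). Csf1 (from 3.94 ± 0.18 to 1.46 ± 0.10) and Igf1 (from 2.56 ± 0.072 to 0.761 ± 0.046), growth factors of macrophages and tissue, fell.

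Receptors for these mediators moved in both directions. Csf1r, the receptor for macrophage colony-stimulating factor, had 346, 343 and 339 FPKM in the Mock libraries and 68.9, 70.9 and 69.5 FPKM in the M1 libraries, a fall in which the groups did not overlap. Il6ra (from 10 ± 0.25 to 2.02 ± 0.059), Il1rl1 (from 7.14 ± 0.22 to 0.982 ± 0.13), Il21r (from 3.9 ± 0.13 to 0.186 ± 0.067) and Tgfbr1 (from 4.28 ± 0.075 to 1.06 ± 0.079) fell. The interleukin 4 receptor gene Il4ra (from 0.827 ± 0.11 to 8.0 ± 0.25) and the interleukin 10 receptor gene Il10ra (from 10.8 ± 0.20 to 29.9 ± 1.0), both receptors for anti-inflammatory signals, rose. Over 23 cytokine receptors 10 were higher and 10 lower. Of the receptors for chemoattractants, Fpr2, which binds formyl peptides, rose from 0.273 ± 0.13 to 18 ± 0.98 and Cx3cr1, the fractalkine receptor, fell from 52 ± 0.49 to 12.6 ± 0.57. In the TNF family 16 of 24 were higher and 6 lower (19 and 3 with RLE scaling). Tnfrsf1b, which encodes TNF receptor 2, had 11.3, 10.6 and 10.5 FPKM in the Mock libraries and 212, 218 and 218 FPKM in the M1 libraries, all M1 libraries above Mock. Tnfrsf9 (from 1.01 ± 0.19 to 57.6 ± 0.79) and Fas (from 3.15 ± 0.33 to 24.9 ± 1.6) rose, and Tnfsf10, the death ligand TRAIL, fell (from 3.96 ± 0.10 to 0.296 ± 0.067).

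Ptgs2, cyclooxygenase 2, had 30.1, 31.6 and 31.5 FPKM in the Mock libraries and 2069.9, 1824 and 1940.3 FPKM in the M1 libraries. Ptges, the inducible prostaglandin E synthase, rose from 0.801 ± 0.17 to 7.11 ± 0.11 FPKM and the prostacyclin receptor Ptgir from 11 ± 0.36 to 47.8 ± 0.84. The constitutive Ptgs1 (from 7.97 ± 0.67 to 5.22 ± 0.21), the prostaglandin D synthase Hpgds (from 20.6 ± 0.74 to 9.77 ± 0.48) and Hpgd, which inactivates prostaglandins (from 6.12 ± 0.41 to 0.524 ± 0.077), fell. Of 17 tested genes of prostaglandin and leukotriene synthesis 7 were higher and 8 lower, which turned to 9 and 7 with RLE scaling.

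Interferon-responsive genes did not rise together. Of 42 antiviral effectors of type I interferon 34 were lower in M1 and 8 higher, with a median of −1.02. With RLE scaling 29 were lower and 11 higher, and with quantile scaling 36 and 4. Samd9l, an antiviral and growth-restricting gene, had 105, 103 and 101 FPKM in the Mock libraries and 9.13, 9.15 and 9.08 FPKM in the M1 libraries (−3.37 ± 0.03 SE, limma adjusted p = 1.37e-14). Ifit1, which binds viral RNA, had 85, 83.8 and 84.9 FPKM in the Mock libraries and 13, 11.7 and 12.2 FPKM in the M1 libraries. In both genes every Mock library lay above every M1 library. Mx1 (from 85.2 ± 0.95 to 21.9 ± 1.1), Oas2 (from 101 ± 1.7 to 29.4 ± 0.95), the kinase gene Eif2ak2 (from 81.4 ± 0.90 to 24.3 ± 1.7), Cmpk2 (from 185 ± 3.6 to 43.8 ± 0.14) and the RNA sensors Ddx58 (from 88.5 ± 1.2 to 34 ± 1.7) and Ifih1 (from 50.4 ± 0.81 to 19.6 ± 0.35) fell. The members that rose were Ifitm2 (from 51.4 ± 5.5 to 112 ± 7.3), Ifi27l2a (from 255 ± 18 to 498 ± 23), Oasl1 (from 189 ± 1.9 to 330.4 ± 5.0), Bst2 (from 605 ± 18 to 880.4 ± 42), Ifitm3 (from 1301 ± 47 to 1531 ± 32), Isg20 (from 83.9 ± 2.0 to 92.3 ± 1.6), Isg15 (from 402 ± 14 to 439 ± 14) and Xaf1 (from 34.1 ± 0.53 to 36.4 ± 0.32), of which Ifitm2 alone reached 2-fold, and with quantile scaling Ifitm3, Isg15 and Isg20 turned to values below 0. Several of these families have close paralogs that can share reads, so the level of a single Ifit, Oas or Ifitm gene is less certain than its family's.

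**Figure D3:**
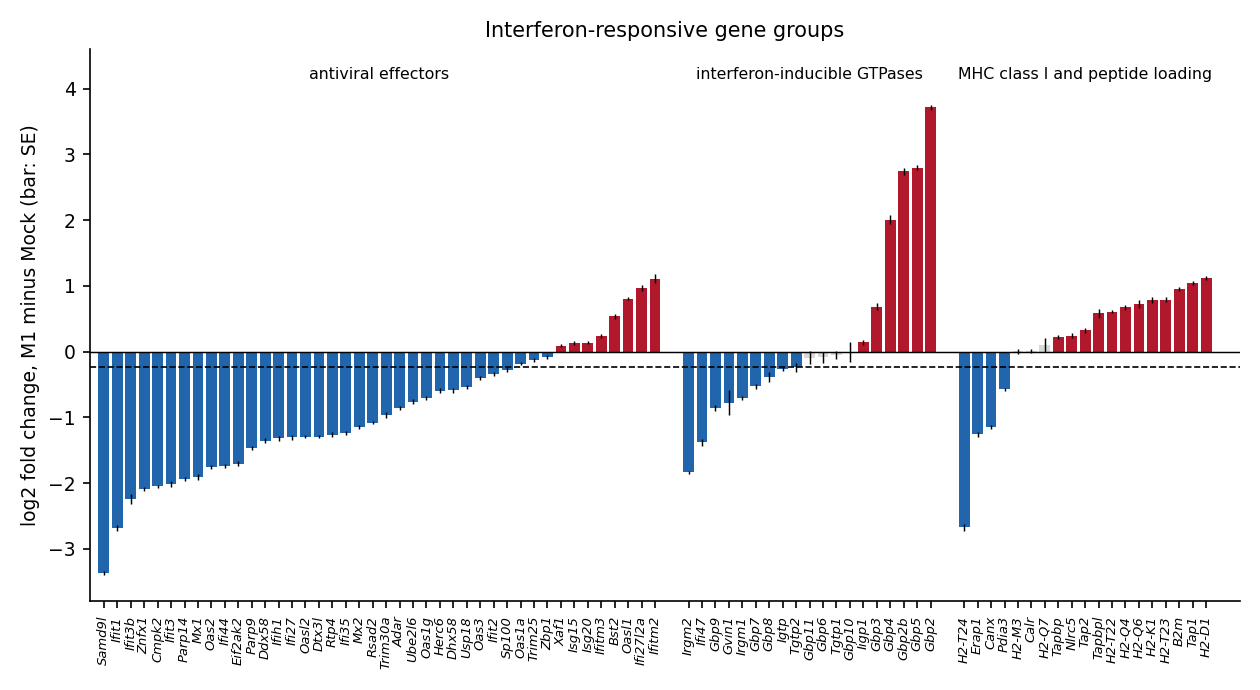
Log2 fold change (M1 minus Mock, on the log2(FPKM + 1) scale) of each tested member of 3 gene lists, with its SE as a vertical line. Red and blue bars are genes called higher and lower, grey bars were not called, and the dashed line is the median of all tested genes at −0.23. Most antiviral effectors lie below 0, the GTPases spread to both sides, and most MHC class I genes lie above 0.

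Some guanylate-binding proteins, GTPases that attack intracellular pathogens, rose far more. Gbp2 had 4.74, 4.81 and 4.33 FPKM in the Mock libraries and 75.3, 69.6 and 73.8 FPKM in the M1 libraries, and Gbp5 (from 3.15 ± 0.11 to 27.9 ± 0.60), Gbp2b (from 4.81 ± 0.26 to 37.9 ± 2.4) and Gbp4 (from 1.83 ± 0.23 to 10.4 ± 0.90) rose as well. The immunity-related GTPases Irgm2 (from 44 ± 0.73 to 11.6 ± 0.30), Ifi47 (from 56 ± 3.7 to 20.9 ± 1.8), Irgm1 (from 65.7 ± 1.4 to 40 ± 1.4) and the guanylate-binding protein gene Gbp9 (from 19.7 ± 0.70 to 10.4 ± 0.11) fell. Over the 19 GTPases 6 were higher and 9 lower, beside 30.5% and 55.3% of all tested genes. With quantile scaling the counts turned to 9 higher and 7 lower. Antigen presentation by MHC class I was higher in 12 of 19 genes and lower in 4. H2-D1, a class I heavy chain, rose from 252 ± 2.4 to 550.0 ± 15, its partner B2m from 1245 ± 9.7 to 2410.2 ± 98 and the peptide transporter Tap1 from 39.5 ± 0.22 to 82.5 ± 2.5 FPKM. H2-T24, a non-classical member, had 174, 177 and 180.2 FPKM in the Mock libraries and 26.1, 28.7 and 25.9 FPKM in the M1 libraries, a fall in every library. The peptide-trimming enzyme gene Erap1 (from 27 ± 0.95 to 10.7 ± 0.58) and the chaperone gene Canx (from 242 ± 2.5 to 109 ± 4.9) fell. Paralogous H2 genes can share reads. Of the 5 immunoproteasome genes 4 were higher, led by Psmb9 (from 17 ± 0.26 to 37.8 ± 2.2), and none was lower. Of 14 class II genes looked for 7 were tested, 4 higher and 3 lower (3 and 3 with quantile scaling), with no 2-fold rise and 1 2-fold fall. Among them the class II chaperone Cd74 rose from 239 ± 3.4 to 395 ± 3.9. Nlrp3, a sensor of the inflammasome, fell from 51.8 ± 1.9 to 37 ± 1.1, and Casp1 (from 28.4 ± 0.89 to 41.8 ± 1.1) and Casp4 (from 14.3 ± 1.3 to 22.5 ± 0.83) rose.

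Genes of arginine and polyamine metabolism moved in both directions, 10 of 21 being higher and 10 lower (12 and 7 with RLE scaling). Nos2, the inducible nitric oxide synthase, had 22.6, 22.1 and 21.8 FPKM in the Mock libraries and 1428, 1456 and 1456 FPKM in the M1 libraries. Ass1, which regenerates arginine from citrulline, rose from 1.48 ± 0.14 to 13.3 ± 0.18 and the arginase gene Arg2 from 0.973 ± 0.057 to 15.2 ± 1.8 FPKM. Odc1, the entry enzyme of polyamine synthesis, had 469.9, 472 and 458 FPKM in the Mock libraries and 3554, 3564 and 3561 FPKM in the M1 libraries. Srm, the next enzyme, which makes spermidine, had 77.5, 75.8 and 75.3 FPKM in the Mock libraries and 6.88, 6.78 and 6.09 FPKM in the M1 libraries (−3.35 ± 0.04 SE, limma adjusted p = 1.32e-13). Odc1 thus rose and Srm fell, with no overlap of groups in either. Amd1, which supplies the aminopropyl group, fell from 18.9 ± 0.71 to 6.45 ± 0.65, and the catabolic genes Smox (from 20.2 ± 0.58 to 87.7 ± 4.4) and Sat1 (from 80.1 ± 1.8 to 328 ± 8.9) rose. Slc7a1, an arginine importer, fell from 41.1 ± 0.83 to 11.1 ± 0.65.

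Carbon metabolism moved at selected steps. Acod1, which makes itaconate from a citric acid cycle intermediate, had 178, 179.9 and 177 FPKM in the Mock libraries and 1637, 1594 and 1604 FPKM in the M1 libraries. Among enzymes of the cycle itself the largest falls were in Idh2 (from 48.2 ± 1.3 to 13.4 ± 0.29), Suclg2 (from 22.7 ± 0.72 to 7.68 ± 0.21) and Idh3a (from 25.3 ± 0.48 to 10.8 ± 0.43). Of 34 genes of the cycle and its branches 11 were higher and 21 lower, and 16 and 17 with RLE scaling. In glycolysis 20 of 33 genes were higher and 8 lower, and 26 and 5 with RLE scaling. Pfkfb3, which makes the activator of phosphofructokinase, rose from 6.63 ± 0.23 to 64.2 ± 0.62, Hk3, a hexokinase, from 77.7 ± 1.3 to 379.9 ± 11 and Slc2a1, which imports glucose, from 69.2 ± 1.7 to 375 ± 11. Slc16a1, a lactate transporter, fell from 49.1 ± 0.39 to 21.9 ± 0.75. In the pentose phosphate pathway 7 of 10 genes were lower and 3 higher, none of the latter by 2-fold, and with RLE scaling the counts were 5 and 3. The counts of this pathway and of the cycle stand beside 55.3% lower and 30.5% higher over all tested genes.

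Lipid genes did not move as a block. Cholesterol synthesis and uptake genes were higher in 12 of 28 and lower in 10 (19 and 6 with RLE scaling). Of 19 genes of fatty acid synthesis and liver X receptor targets 17 were lower and 2 higher (14 and 3 with RLE scaling). Fasn, fatty acid synthase, had 85.8, 84.7 and 83.2 FPKM in the Mock libraries and 6.41, 6.55 and 6.96 FPKM in the M1 libraries. Scd1 (from 46.3 ± 1.2 to 14.1 ± 0.26) and the cholesterol exporters Abcg1 (from 48.6 ± 0.51 to 10.5 ± 0.31) and Abca1 (from 12.8 ± 0.70 to 4.64 ± 0.22) fell. Of 23 tested genes of lipid uptake, droplets and oxidation 12 were higher and 8 lower (17 and 5 with RLE scaling). Hilpda, an inhibitor of lipolysis, had 7.51, 6.19 and 5.08 FPKM in the Mock libraries and 189, 194 and 193 FPKM in the M1 libraries. The scavenger receptor Cd36 rose from 9.9 ± 0.25 to 126 ± 8.6, the droplet coat gene Plin2 from 49.3 ± 1.2 to 161 ± 0.91 and the fatty acid carrier Fabp4 from 0.834 ± 0.042 to 15.5 ± 0.56.

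Nucleotide genes were lower in 24 of 35 and higher in 7 (24 and 11 with RLE scaling), with 17 falls of at least 2-fold and a median of −0.98. The multifunctional enzymes of new synthesis fell, Cad of pyrimidines from 26.8 ± 0.90 to 3.58 ± 0.20 and Gart of purines from 26.9 ± 0.53 to 3.1 ± 0.45 FPKM. Dut (from 18 ± 0.20 to 2.4 ± 0.31), Pfas (from 11.2 ± 0.52 to 1.59 ± 0.11) and Umps (from 12.7 ± 0.77 to 2.51 ± 0.078) fell as well. The largest rises were in genes that act on free nucleosides and bases. Upp1, which splits uridine, had 1.48, 1.76 and 1.64 FPKM in the Mock libraries and 402, 423 and 408 FPKM in the M1 libraries. Cda, cytidine deaminase, rose from 0.925 ± 0.29 to 15.6 ± 0.92 and Aprt, which salvages adenine, from 102 ± 1.4 to 255 ± 4.6.

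Of 21 iron and heme genes 10 were higher and 11 lower, and 10 and 10 with RLE scaling. Fth1, the ferritin heavy chain, had 1085, 1089 and 1086 FPKM in the Mock libraries and 5448, 5587 and 5454 FPKM in the M1 libraries. Lcn2, which binds bacterial siderophores, rose from 0.762 ± 0.19 to 225 ± 3.5, the phagosomal metal transporter Slc11a1 from 10.2 ± 0.21 to 52 ± 0.28 and the heme-degrading enzyme gene Hmox1 from 129 ± 4.4 to 746 ± 9.1. The transferrin receptor Tfrc (from 50.5 ± 0.86 to 19.6 ± 1.0), the iron exporter Slc40a1 (from 12.5 ± 0.28 to 5.28 ± 0.18) and the iron sensor Ireb2 (from 16.1 ± 0.66 to 6.15 ± 0.12) fell. Ferritin genes have many processed copies that can share reads. Antioxidant genes were not uniform either, with 12 of 30 higher and 14 lower, and 18 and 12 with RLE scaling. Prdx5, a peroxiredoxin, had 45.4, 49.6 and 51.3 FPKM in the Mock libraries and 581, 614 and 612 FPKM in the M1 libraries, all M1 libraries above Mock, and Sod2 rose from 11.3 ± 0.35 to 31.4 ± 0.35. Nfe2l2, which encodes the regulator NRF2 (from 44 ± 2.1 to 13.9 ± 0.19), its partner Keap1 (from 21.7 ± 0.84 to 7.75 ± 0.39) and the glutathione synthesis gene Gclc (from 22.6 ± 0.18 to 5.75 ± 0.46) fell. Of 8 genes of the phagocyte NADPH oxidase 6 were higher and none lower (5 and 3 with quantile scaling), and the catalytic subunit Cybb was not called (from 346 ± 6.4 to 357 ± 5.0), though it was called lower with quantile scaling and higher with RLE scaling.

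Genes of cell division fell as a group. Of 61 mitotic genes 60 were lower, 54 of them at least 2-fold, against 55.3% and 16.1% of all tested genes, and the median was −2.35. Ccnb2, a mitotic cyclin, had 42.9, 39.2 and 41.2 FPKM in the Mock libraries and 1.44, 0.926 and 0.919 FPKM in the M1 libraries. Cdc20, an activator of the anaphase-promoting complex, had 48.6, 44.3 and 47.6 FPKM in the Mock libraries and 1.43, 1.71 and 1.15 FPKM in the M1 libraries. Every M1 library lay below every Mock library in both genes. The largest other falls included Ccna2 (from 24.9 ± 0.80 to 0.838 ± 0.12), Plk1 (from 28.4 ± 1.3 to 1.23 ± 0.30) and Cenpe (from 21.7 ± 0.65 to 0.71 ± 0.15). The exception was Cks2, a CDK-binding subunit, which rose from 20.8 ± 2.0 to 33.4 ± 1.1. Of 55 replication genes 51 were lower and 2 higher (48 and 4 with RLE scaling), with a median of −1.35. Mcm6, a helicase subunit, fell from 34.5 ± 1.0 to 2.45 ± 0.12 and Rrm2, a ribonucleotide reductase subunit, from 30.2 ± 0.41 to 2.71 ± 0.22, while the licensing factor Cdt1 rose from 20.4 ± 0.61 to 33 ± 1.5.

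Genes of G1 cyclins, CDK inhibitors and pocket proteins were higher in 8 of 20 and lower in 11 (10 and 8 with RLE scaling). Cdkn1a, the inhibitor p21, had 124, 129 and 132 FPKM in the Mock libraries and 353, 374 and 365 FPKM in the M1 libraries. The inhibitor gene Cdkn2d rose from 14.9 ± 0.38 to 68.5 ± 3.2. Ccnd1 (from 234 ± 3.2 to 123 ± 2.3), Cdk4 (from 92.4 ± 3.7 to 44.5 ± 0.98) and the pocket protein gene Rbl1 (from 17.3 ± 0.10 to 2.15 ± 0.025) fell. In a list of the p53 gene and genes linked to p53, 17 of 26 were higher and 8 lower (19 and 5 with RLE scaling). Gadd45b (from 8.06 ± 0.53 to 107 ± 0.58), Plk2 (from 44.4 ± 1.3 to 157 ± 3.8) and Mdm2 (from 34.4 ± 0.77 to 121 ± 1.5) were among the rises. The p53 gene itself, Trp53, is among the 8 and fell from 51 ± 1.0 to 20.6 ± 0.61. Among BCL2 family and related genes 16 of 24 were higher and 7 lower (16 and 4 with quantile scaling). The survival genes Bcl2l1 (from 39.1 ± 0.94 to 109 ± 2.0) and Mcl1 (from 179.8 ± 3.2 to 382 ± 0.95) rose, and Xiap (from 21.9 ± 1.1 to 9.99 ± 0.76) and Birc6 (from 13.7 ± 0.55 to 4.74 ± 0.25) fell.

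The making of ribosomes and the ribosome's own proteins moved apart. Of 55 genes of ribosome biogenesis and RNA polymerases I and III 51 were lower, 38 of them at least 2-fold, and 2 higher, with a median of −1.42 (49 and 5 with RLE scaling). Npm1, a nucleolar chaperone, had 697, 698 and 702 FPKM in the Mock libraries and 276, 263 and 247 FPKM in the M1 libraries. Dkc1, which modifies ribosomal RNA, had 30.8, 29.4 and 30.7 FPKM in the Mock libraries and 1.87, 1.65 and 1.43 FPKM in the M1 libraries, and Ncl, nucleolin, fell from 179 ± 1.4 to 27.9 ± 1.5. Npm1 and Ncl were named after their values had been seen. Of 83 cytosolic ribosomal protein genes 66 were higher and 5 lower, with a median of 0.35 and a single 2-fold rise, in Rps10 (from 1.87 ± 0.26 to 4.98 ± 0.45). The counts were 79 and 1 with RLE scaling and 29 and 29 with quantile scaling, so this direction depends on the scaling, and reads of these genes can be shared with processed copies. Mitochondrial ribosomal proteins were lower in 41 of 77 and higher in 18, beside 55.3% and 30.5% of all tested genes. With RLE scaling the counts turned to 21 lower and 42 higher.

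**Figure D4:**
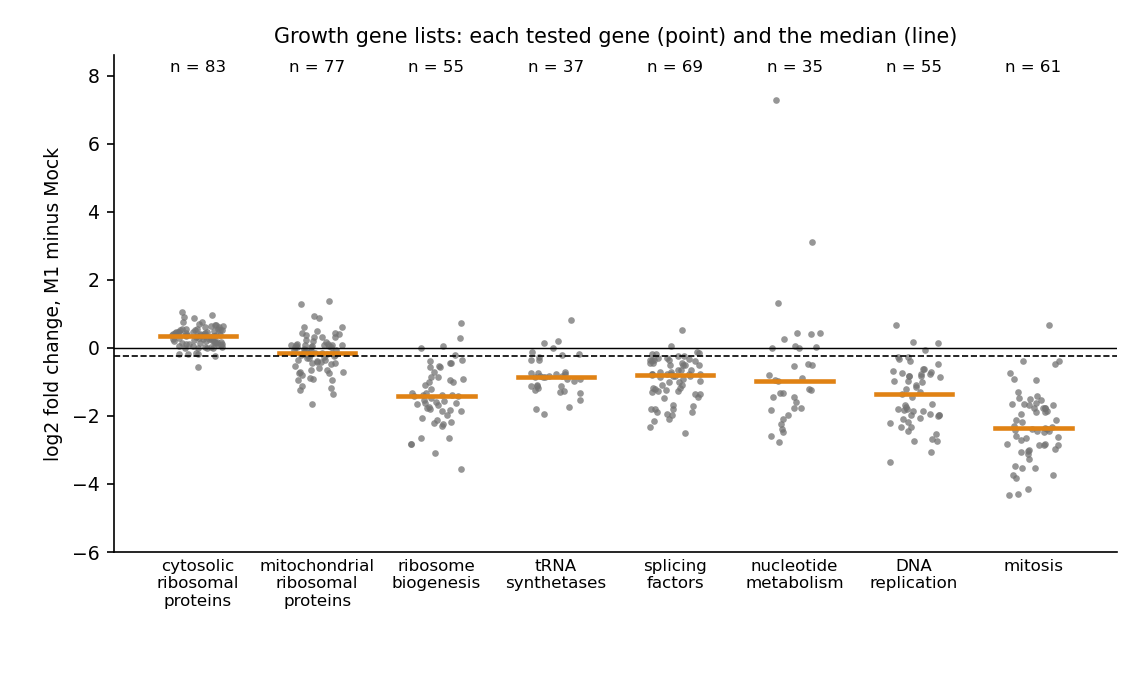
Log2 fold change (M1 minus Mock, on the log2(FPKM + 1) scale) of every tested member of 8 gene lists (points, spread sideways at random) with the median of each list (orange line). The dashed line is the median of all tested genes at −0.23. The median is 0.35 for cytosolic ribosomal proteins, −1.42 for ribosome biogenesis and −2.35 for mitosis.

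Aminoacyl-tRNA synthetases were lower in 33 of 37 and higher in 2 (27 and 5 with RLE scaling), led by Vars (from 85.5 ± 0.45 to 21.6 ± 1.3), Lars (from 79 ± 0.96 to 21.8 ± 1.1) and Iars (from 104 ± 0.96 to 30.6 ± 1.4). Of 66 translation factors 47 were lower and 12 higher (34 and 22 with RLE scaling), with Eif3a, the scaffold of initiation factor 3, falling from 113 ± 1.1 to 24.8 ± 1.0 and Eif1b rising from 17.5 ± 1.9 to 62.1 ± 0.82. Splicing factors and hnRNP proteins were lower in 67 of 69, 26 of them at least 2-fold, and higher in 1, Prpf38a (from 12.1 ± 0.19 to 17.8 ± 0.73). With RLE scaling 53 were lower and 5 higher. Srsf6, a splicing regulator rich in serine and arginine, had 66.3, 65 and 63.9 FPKM in the Mock libraries and 10.5, 11 and 10.6 FPKM in the M1 libraries. Srsf1 (from 70.5 ± 1.6 to 13.4 ± 0.28) and Hnrnpm (from 59.1 ± 0.54 to 12.4 ± 0.50) fell. Of 266 numbered zinc finger protein genes 218 were lower and 25 higher (183 and 39 with RLE scaling), and of 11 tested Kruppel-like factors 9 were lower (7 with RLE scaling and 6 with quantile scaling), while Klf6 rose from 42.7 ± 1.1 to 108 ± 3.7 FPKM.

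Of 24 genes of the ATF4 response and of serine synthesis 22 were lower, 13 at least 2-fold, and 2 higher, with a median of −1.10 (19 and 5 with RLE scaling). Shmt2, the mitochondrial enzyme that moves carbon units from serine to folate, had 206, 209 and 214 FPKM in the Mock libraries and 26.4, 27 and 27.3 FPKM in the M1 libraries. Phgdh, the entry enzyme of serine synthesis (from 227 ± 0.11 to 62.2 ± 3.1), and the amino acid transporters Slc7a5 (from 98.8 ± 1.1 to 24 ± 0.79) and Slc1a4 (from 19.6 ± 0.50 to 2.48 ± 0.32) fell. The rises were Ddit4, an mTOR inhibitor (from 11.1 ± 0.41 to 31.5 ± 1.4), and Ddit3 (from 25.3 ± 0.74 to 52.7 ± 0.56). Heat shock proteins and chaperonins were lower in 23 of 31 and higher in 3 (22 and 8 with RLE scaling), and Hspd1, the mitochondrial chaperonin, had 393, 385 and 406 FPKM in the Mock libraries and 76.8, 75.6 and 72.4 FPKM in the M1 libraries. In the endoplasmic reticulum 21 of 29 chaperone and stress genes were lower and 6 higher (17 and 9 with RLE scaling). Hyou1 (from 78.2 ± 1.1 to 23.4 ± 0.71) and Hspa5 (from 603 ± 6.1 to 338 ± 9.7) fell, and P4hb, a disulfide isomerase, rose from 464 ± 10.0 to 1312 ± 5.7.

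Lysosomal genes were higher in 30 of 46 and lower in 12 (36 and 9 with RLE scaling). The cathepsin genes Ctsd (from 252 ± 4.2 to 800.3 ± 15) and Ctsb (from 410.1 ± 3.2 to 833 ± 15) rose, and Arsb (from 22.8 ± 0.88 to 3.42 ± 0.015) fell. The proton pump that acidifies lysosomes was higher in 14 of 19 subunits and lower in 3, led by Atp6v1d (from 13.2 ± 0.12 to 32.1 ± 1.1). Of 36 autophagy genes 20 were higher and 11 lower (25 and 6 with RLE scaling), led by Gabarap (from 66.7 ± 0.62 to 196 ± 5.6).

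Mitochondrial transcripts moved apart from nuclear respiratory genes. Of 76 nuclear genes of the respiratory chain and ATP synthase 42 were higher, 12 lower and 22 not called, and 1 rise reached 2-fold. With RLE scaling 64 were higher, 5 lower, and 11 rises reached 2-fold. The files list 11 genes of the mitochondrial genome by short names, and these were singled out after their values were seen. Of them 9 were lower, 7 at least 2-fold, and none higher, with a median of −1.19. Among the 9, levels were low in ND4L (from 2.68 ± 0.28 to 1.09 ± 0.29), COX2 (from 23.8 ± 1.8 to 11.3 ± 0.78) and ATP6 (from 17.8 ± 0.90 to 9.34 ± 0.95). COX3, which was not called, was low too (from 17.5 ± 2.3 to 14.7 ± 5.7). ND1, a subunit of complex I, had 2087, 2103 and 2100.0 FPKM in the Mock libraries and 281, 277 and 245 FPKM in the M1 libraries. CYTB, a subunit of complex III, had 1751, 1774 and 1794 FPKM in the Mock libraries and 382, 369 and 327 FPKM in the M1 libraries. COX1, the most abundant gene listed in Mock, was not called, with 8943, 8904 and 8776 FPKM in the Mock libraries and 9852, 9381 and 8797 FPKM in the M1 libraries, and its groups overlapped. It was called higher with RLE scaling and lower with quantile scaling. Nuclear copies of mitochondrial DNA can share these reads.

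**Figure D5:**
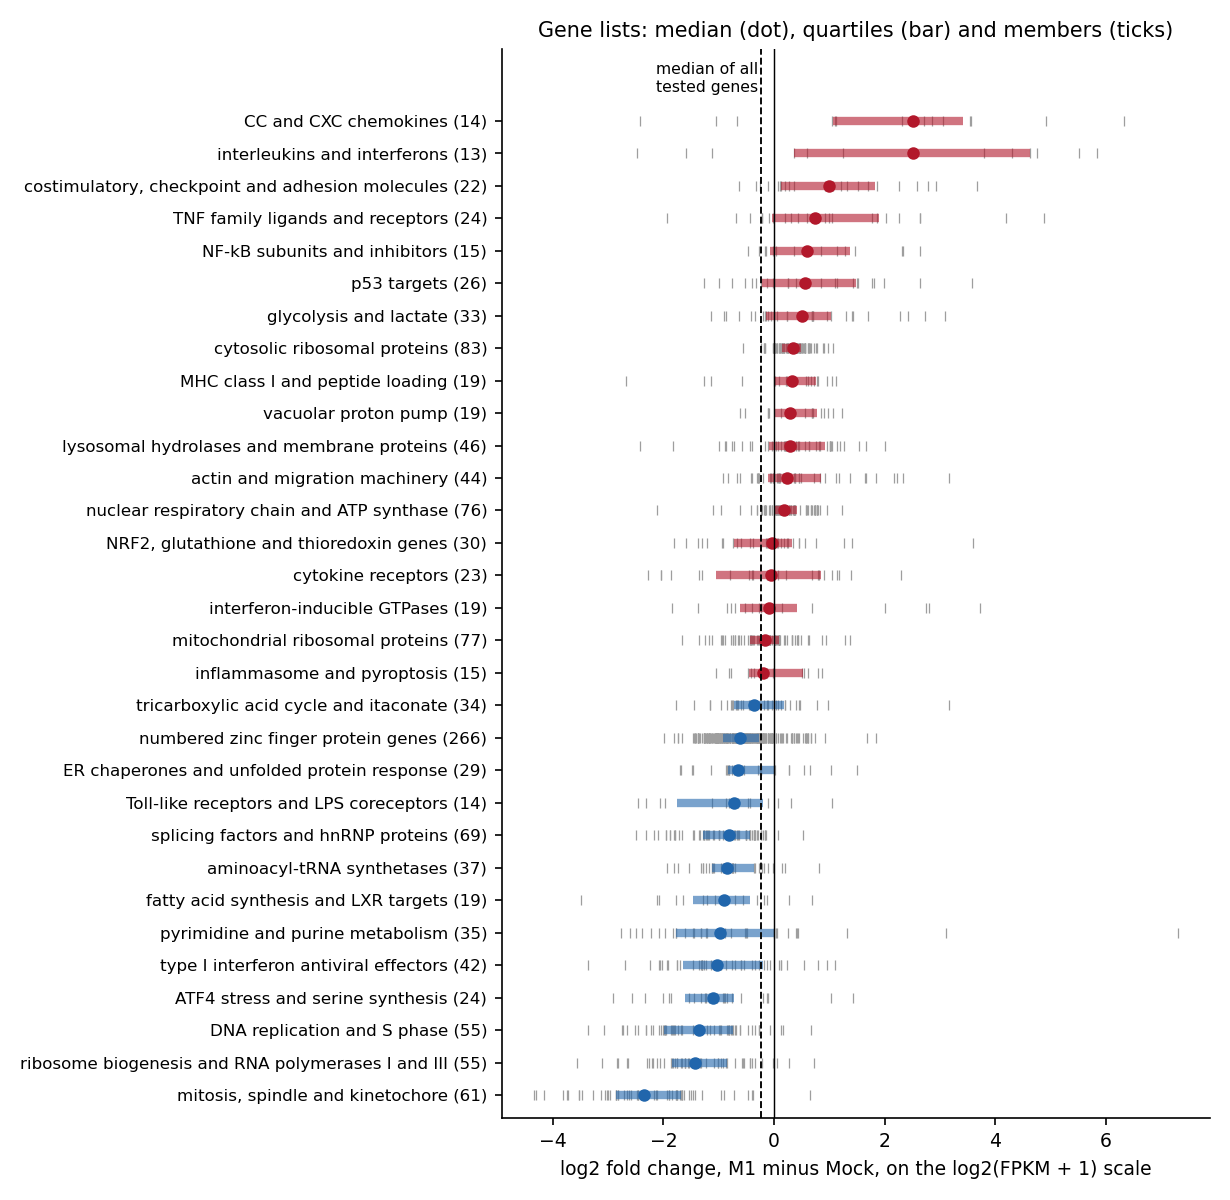
Log2 fold change (M1 minus Mock, on the log2(FPKM + 1) scale) of the tested members of 31 gene lists, with the number of members in brackets. Grey ticks are genes, bars span the quartiles, and dots are medians, coloured red above and blue below the median of all tested genes (dashed line, −0.23). Chemokines stand highest with a median of 2.51 and mitotic genes lowest with −2.35.

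Surface molecules changed in both directions. Itgb2, the shared chain of the leukocyte integrins, had 61.5, 63.9 and 60.5 FPKM in the Mock libraries and 366, 363 and 373 FPKM in the M1 libraries. Its partners Itgal (from 11.2 ± 0.59 to 53.5 ± 1.1) and Itgam (from 14.9 ± 1.0 to 51.9 ± 0.73) rose too. Itga4, which pairs with other beta chains and binds VCAM-1, had 219.7, 213 and 213 FPKM in the Mock libraries and 12.4, 11.5 and 12 FPKM in the M1 libraries. Its fall was the largest among 17 tested genes of a list of integrins, 10 of which were higher and 7 lower. That list also holds the integrin adaptor genes Fermt3, Tln1 and Tln2. Of 22 costimulatory, checkpoint and adhesion genes 16 were higher and 4 lower (19 and 1 with RLE scaling). Cd274, which encodes the checkpoint ligand PD-L1, had 4.77, 4.47 and 4.61 FPKM in the Mock libraries and 72.8, 67.8 and 71.3 FPKM in the M1 libraries. Cd80 rose from 3.61 ± 0.30 to 21.2 ± 0.51, Cd86 from 0.439 ± 0.11 to 7.62 ± 0.75 and Cd40 from 19.5 ± 0.15 to 73.7 ± 0.26.

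Fc receptors, C-type lectins and their signalling adaptors were higher in 13 of 20 and lower in 7. Clec4e, a receptor for mycobacterial glycolipid, had 38.3, 38.3 and 40.1 FPKM in the Mock libraries and 219, 207 and 210.2 FPKM in the M1 libraries. The Fc receptor Fcgr3 rose from 9.09 ± 0.90 to 37.6 ± 1.7 and its signalling chain Fcer1g from 175 ± 8.0 to 424 ± 12. Trem2, a lipid-sensing receptor of tissue macrophages, had 19.2, 19.6 and 20.4 FPKM in the Mock libraries and 1.62, 1.22 and 1.2 FPKM in the M1 libraries. Among macrophage identity genes Adgre1, which encodes F4/80, rose from 21.7 ± 0.78 to 103 ± 2.3, and the lysozyme genes Lyz2 (from 3155 ± 43 to 1138 ± 31) and Lyz1 (from 121 ± 3.4 to 17.2 ± 1.7) fell. Of 44 genes of the actin and tubulin skeleton and migration 27 were higher and 12 lower (34 and 6 with RLE scaling, 20 and 19 with quantile scaling), led by the tubulin gene Tuba1a (from 6.69 ± 0.20 to 67.8 ± 0.51), Rhoc (from 84.9 ± 1.8 to 430.3 ± 6.7) and the actin gene Actg1 (from 142 ± 1.5 to 670.0 ± 19). Secreted protease inhibitors rose at Slpi (from 4.8 ± 0.74 to 112 ± 6.9) and Serpina3f (from 0.149 ± 0.023 to 149 ± 0.12), the latter with close paralogs. The membrane protease Adam8 rose from 122 ± 0.33 to 546 ± 5.5, and Adam10 (from 52.5 ± 1.9 to 19.4 ± 0.41) and Adam17 (from 58.5 ± 1.2 to 22.9 ± 0.84), which shed membrane proteins, fell. Ranbp3l, a Smad export factor, fell from 36.7 ± 0.20 to 0.73 ± 0.048, and Htr1b, a serotonin receptor gene, from 13.3 ± 0.44 to 0.191 ± 0.031.

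Genes that changed at least 2-fold in the same direction lay side by side in several places (GRCm38, neighbours among tested genes, described with no test and chosen after the values were seen). On chromosome 11, from 83511736 to 83706268, the 7 genes Heatr9, Ccl5, Ccl9, Ccl6, Ccl3, Ccl4 and Wfdc17 all rose. On chromosome 19, from 34583531 to 34747289, the 6 genes Ifit3, Ifit1bl1, Ifit3b, Ifit1bl2, Ifit1 and Slc16a12 all fell. Another run of 5 falling genes on chromosome 11, from 82900768 to 83040042, held Nle1, Slfn5, Slfn9, Slfn8 and Slfn10-ps and lay near the chemokine run. The immunoglobulin heavy chain region on chromosome 12, from 113156421 to 113429833, held Tedc1, Ighd, Ighm, Ighj4 and Ighj1, all lower in M1. By structure, genes that rose at least 2-fold had a median genomic span of 15 kb and 7 merged exons, those that fell 24.6 kb and 11, and all tested genes 21.5 kb and 9.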

How the data were processed

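RNA of RAW264.7 cells was sequenced in 9 libraries, of which 3 Mock and 3 M1 libraries are compared here. The authors deposited 1 FPKM value per gene row, a unit read from the numbers since no header names it. The submitters' processing notes name featureCounts 2.0.1, HISAT2 2.2.1, fastp 0.20.1 and the genome build GRCm38, with no roles or order. No source used here gives their settings or the use of strand, so reads of overlapping antisense genes cannot be told apart. Whole fragments were recovered from FPKM, the exon lengths of GENCODE M21 and the library step, with 98.43% to 98.58% of values whole within 0.05 fragments.

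Each row was taken as log2(FPKM + 1) and tested with limma 3.58.1 in R 4.3.3, with a term per group over all 9 libraries, an intensity trend and Benjamini-Hochberg adjustment. Rows with at least 0.5 FPKM in at least 3 libraries were tested, and 1318 were removed. A gene was called at an adjusted p under 0.05. Lists are described by counts of calls and medians, with no set test. The members and lists were chosen with earlier results of these data known. Genes were named by a rule: the 15 largest rises and falls with at least 10 FPKM in the higher group and no overlap of groups, any member of a main list, the 3 largest rises and falls of the other lists, and the genes considered for their promoters, Nos2, Nfkbia, Csf3, Ifit1, Cxcl10 and Ccnb2. The model was tested on simulated data. The alternatives were RLE, upper quartile and quantile scaling, a pseudocount of 0.1, no filter, the 6 compared libraries alone, limma-voom on recovered fragments, a replicate block and each library left out in turn.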

Additional observations from a re-analysis of the deposited data

How the results depend on the processing

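With RLE scaling, 1163 genes were called at least 2-fold higher and 1163 at least 2-fold lower, against 756 and 1794 with the library totals. With upper quartile scaling the counts were 948 and 1401, with quantile scaling 1085 and 1199, and with a pseudocount of 0.1 they were 1037 and 2647. Limma-voom on the recovered fragments of 10762 genes gave 1049 and 2652. Over all genes, the counts of calls higher and lower without a fold limit stayed within 1.5 times of those reported under the alternatives run. Of 148 counts of list members higher or lower, 37 moved further than that with RLE scaling, 32 with quantile scaling, 12 with upper quartile scaling and 2 with limma-voom, and none under the other alternatives. Leaving out each library in turn gave 3289 to 3366 genes higher, 6044 to 6089 lower, 745 to 769 at least 2-fold higher and 1775 to 1827 at least 2-fold lower. The replicate block by library number gave 3396 higher and 6152 lower. Deviations of same-numbered libraries correlated at −0.011 to 0.046, and those of libraries with unlike numbers at −0.058 to 0.046. With 3 libraries per group this cannot show whether replicates were paired, and no label says so. Among named genes, quantile scaling turned the log2 fold change of COX1 to −0.644, Cybb to −0.445, Ifitm3 to −0.409, Isg15 to −0.373, Mpeg1 to −0.033, Isg20 to −0.011 and Cd68 to −0.008. The cause was not tested. No named gene turned when a library was left out.

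Depth limits genes with few fragments. The Mock libraries held 2 fragments each of Ccl22, 1 to 3 of Slamf7 and 5 to 10 of Serpina3f, so their rises are known by direction more than by size. The same holds for Il1a (4 to 6 fragments per Mock library), Il1b (6 to 10), Edn1 (3 to 11), Fpr2 (3 to 10) and Csf3 (7 to 24).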

Other observations

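Several gene groups outside the account above held large changes. Of 42 tested ubiquitin-specific proteases 31 were lower and 7 higher (25 and 15 with RLE scaling). Usp1, which acts in DNA repair, fell from 39.3 ± 1.5 to 6.71 ± 0.54 FPKM and Usp35 rose from 1.95 ± 0.091 to 7.16 ± 0.24. Among 80 tested histone and DNA modifying enzymes 57 were lower and 17 higher (44 and 24 with RLE scaling). Kat2a, a histone acetyltransferase, fell from 27.7 ± 0.73 to 5.9 ± 0.20 and the deacetylase Sirt2 rose from 13.4 ± 0.59 to 45.3 ± 1.8. Of 42 tested Rab GTPases, regulators of vesicle traffic, 19 were higher and 16 lower, and 26 and 4 with RLE scaling. Rab20, found on phagosomes, rose from 4.95 ± 0.73 to 37.3 ± 2.0 and Rab7b, an endosomal member, fell from 19.8 ± 0.73 to 4.8 ± 0.18.

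Among 42 tested ion channels and pumps, the mechanically gated Piezo1 rose from 13.8 ± 0.73 to 46.8 ± 1.3 and the store-operated calcium channel Orai1 rose from 10.3 ± 0.28 to 31.1 ± 1.0, while the magnesium and calcium channel Trpm7 fell from 15.2 ± 0.31 to 3.06 ± 0.12. The endolysosomal peptide transporter Slc15a3 had 20.6, 20.6 and 21.6 FPKM in the Mock libraries and 227, 235 and 234 FPKM in the M1 libraries, the largest rise of the 149 solute carriers tested. Of 7 genes of osmolyte synthesis and transport 6 were lower and 1 higher, and 4 and 3 with RLE scaling. The aldose reductase Akr1b3 (from 61.8 ± 0.54 to 11.7 ± 0.12), the inositol transporter Slc5a3 (from 38.8 ± 0.62 to 7.52 ± 0.13) and the amino acid transporter Slc38a2 (from 105 ± 0.91 to 22.4 ± 0.83) fell. The metallothionein Mt1 rose from 54.7 ± 3.0 to 191 ± 8.2. The complement component C3 rose from 4.46 ± 0.18 to 15.1 ± 0.51 and properdin, Cfp, from 103 ± 2.4 to 226 ± 2.6.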
